A study of Mus musculus with 3 samples.

Results

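The genes described here are 9 proteases of the exocrine pancreas (Ctrb1, Ctrl, Ctrc, Cpa1, Cpb1, Cela1, Cela2a, Cela3b and 2210010C04Rik) as measured in RNA of the mouse distal colon. They were chosen from the measured values themselves, because several of them had a high log2 signal on the WT normal array and a signal at background on both DSS arrays. For that reason their differences from WT normal are given as a description, with no test. Each of the 9 was represented by 1 probe set with a single gene symbol, and they are 9 of 19938 genes measured in this way.

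Colonic gene expression was measured with 1 array for each of 3 groups of male BALB/c mice aged 10 to 12 weeks, and the RNA was taken on day 7. The IL-4Rα-/- colitis pool held RNA of 6 mice that lacked the IL-4 receptor α subunit (Il4ra tm1Sz allele) and drank 3% DSS (dextran sulfate sodium, which injures the colonic epithelium). The WT colitis pool held RNA of 3 wild-type mice given the same 3% DSS, and the WT normal pool held RNA of 4 wild-type mice given water. WT and IL-4Rα-/- mice were littermates, and the knockout was not restricted to a cell type. An array of untreated IL-4Rα-/- mice was not analysed here. With 1 array of pooled RNA per group there is no replicate spread, so no difference has an error or a p-value, and DSS, the pool of mice and the array cannot be told apart. In bulk tissue, fewer cells of a type and less RNA per cell cannot be told apart either.

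Signals are log2 values of a probe set as deposited, with medians over all 28944 probe sets of 4.11 in IL-4Rα-/- colitis, 4.18 in WT colitis and 4.11 in WT normal. As a guide to background, 1212 probe sets for olfactory and vomeronasal receptors had a median of 2.44 and a 95th percentile of 3.5, and 3.5 is called the background level. Where a colitis value lay below it, the fold is computed against 3.5 and given as at least that fold. Il4ra, the targeted gene, had 4.76 in IL-4Rα-/- colitis, 6.63 in WT colitis and 5.69 in WT normal. Whether its probes fall inside the deletion could not be determined from the files, so these values check the genotype only in part. Markers of colonic epithelium were high on all 3 arrays. Car1, a carbonic anhydrase of colonocytes, had 12.83, 12.67 and 12.80 in IL-4Rα-/- colitis, WT colitis and WT normal. Muc2, the gel-forming mucin of goblet cells, had 12.71, 12.88 and 12.83 on the same arrays. Cdx2, an intestinal transcription factor, had 7.48, 7.59 and 7.17 in the same order of groups. Of 16 measured genes of colonic epithelium, IL-4Rα-/- colitis had 1 below WT normal by over 2-fold (Clca1), against 0.321% of all probe sets. It had 1 above (Ms4a12), against 0.207%. WT colitis had 3 below (Hoxb13, Aqp8 and Slc26a3), against 0.408%, and 0 above, against 1.06%. Hoxb13 had 7.44 in IL-4Rα-/- colitis, 5.47 in WT colitis and 7.92 in WT normal. Whether the pools held the same part of the colon was not tested.

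Acinar cells of the exocrine pancreas make digestive proteases as inactive zymogens, which pass through the pancreatic duct into the duodenum. There enteropeptidase cleaves trypsinogen, and trypsin then activates chymotrypsinogens, proelastases and procarboxypeptidases. Chymotrypsins, elastases and trypsins are serine endopeptidases that cut inside a protein chain, whereas pancreatic carboxypeptidases are zinc enzymes that remove residues from its end. In acinar cells, the transcription factor complex PTF1 binds a bipartite site in the promoters of many of these genes, made up of an E-box and a TC-box.

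All 9 proteases were lower on both colitis arrays than on the WT normal array. In IL-4Rα-/- colitis 8 of the 9 lay over 4-fold below WT normal, against 0.155% of all probe sets, and in WT colitis 9 of 9 did, against 0.135%. The same contrasts chose the genes, so nothing is read from these shares. The median log2 difference over the 9 was -4.73 in both comparisons, with a range of -7.52 to -1.77 in IL-4Rα-/- colitis and of -7.06 to -2.43 in WT colitis. The median over all probe sets was 0. As 6 of the 9 colitis values on each array were at or below the background level, these differences depend on values near the floor of the array. With 32 added to every linear signal the medians were -2.85 in IL-4Rα-/- colitis and -2.79 in WT colitis, and 6 of 9 passed 4-fold in each. Both comparisons share the WT normal array, so they do not count as separate support for each other. Ctrl, Cela1 and Cela2a were above the background level on both colitis arrays, and all 9 were above it in WT normal.

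**Figure D1:**
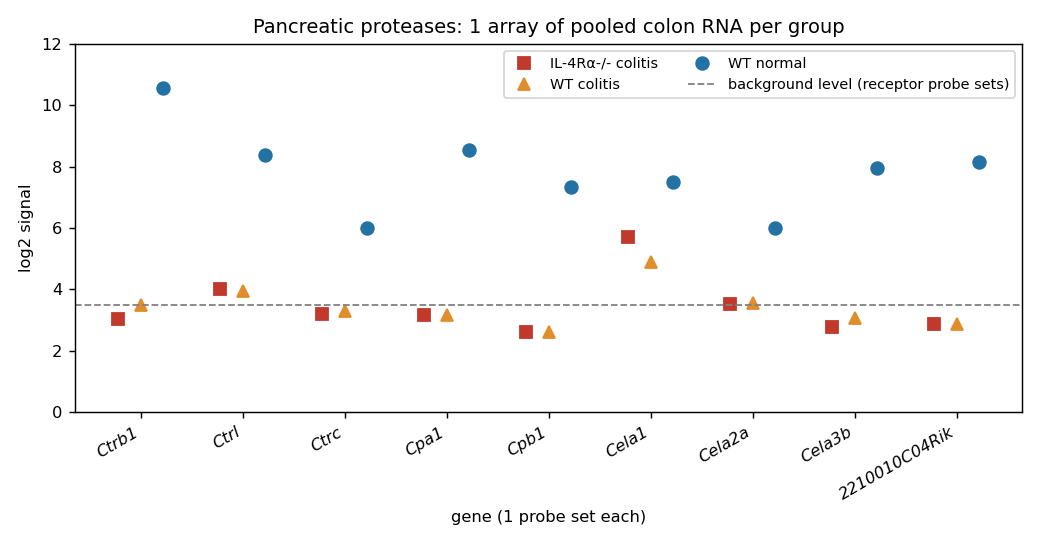
Log2 signal (y axis) of each of the 9 proteases (x axis) on the IL-4Rα-/- colitis (squares), WT colitis (triangles) and WT normal (circles) arrays, 1 point per array, with a dashed line at the background level of 3.5. All WT normal points lie between 5.99 and 10.55, and among the colitis points only those of Cela1 (5.72 and 4.90) lie more than 1 unit above the line.

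Of the chymotrypsins, Ctrb1 (chymotrypsinogen B1, which cuts after large aromatic residues once activated) had the largest difference. Its log2 signal was 3.03 in IL-4Rα-/- colitis, 3.49 in WT colitis and 10.55 in WT normal. Both colitis values were at background, so it was at least 133-fold lower in each colitis pool. Ctrl, a chymotrypsin-like protease, had 4.00 in IL-4Rα-/- colitis, 3.95 in WT colitis and 8.37 in WT normal. It was 20.7-fold lower in IL-4Rα-/- colitis and 21.4-fold lower in WT colitis, with colitis values a little above the background level. Ctrc is chymotrypsin C, known in humans for degrading trypsinogen. It had 3.21 in IL-4Rα-/- colitis, 3.30 in WT colitis and 6.01 in WT normal, so it was at least 5.70-fold lower in either pool. In the RefSeq annotation of the C57BL/6J reference Ctrc is listed as a transcribed pseudogene, while the mice here were BALB/c.

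The elastases are named for the digestion of elastin, and 3 genes of this family are among the 9. Cela3b had 2.76 in IL-4Rα-/- colitis, 3.05 in WT colitis and 7.95 in WT normal, at least 21.9-fold lower in either colitis pool. Cela2a had 3.51 in IL-4Rα-/- colitis, 3.56 in WT colitis and 5.99 in WT normal, which made it 5.58-fold and 5.39-fold lower. The log2 signal of Cela1 was 5.72 in IL-4Rα-/- colitis, 4.90 in WT colitis and 7.49 in WT normal, and both colitis values were above background, as were those of Ctrl and Cela2a. It was 3.41-fold lower in IL-4Rα-/- colitis, the single case among the 9 that did not pass 4-fold, and 6.02-fold lower in WT colitis.

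Both carboxypeptidases among the 9 had the same value on both colitis arrays. Cpa1, which removes aromatic and aliphatic residues from the C-terminus, had 3.17 in IL-4Rα-/- colitis, 3.17 in WT colitis and 8.53 in WT normal, at least 32.7-fold lower. Cpb1, which removes arginine and lysine, had 2.62, 2.62 and 7.35 on the same arrays, at least 14.4-fold lower. The gene 2210010C04Rik, which lies next to Try4 (trypsin 4) in the RefSeq annotation, had 2.86 in IL-4Rα-/- colitis, 2.86 in WT colitis and 8.14 in WT normal. It was at least 24.9-fold lower in either colitis pool. Identical values were common in the whole table, and 53.7% of all probe sets were equal on both colitis arrays, so equality in 3 of the 9 says nothing particular about them.

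IL-4Rα-/- colitis and WT colitis were then compared directly. None of the 9 differed by more than 2-fold (0 of 9), against 0.998% of all probe sets in either direction, and the median log2 difference was 0. Cela1 had the largest difference, 0.82 for IL-4Rα-/- colitis minus WT colitis or 1.77-fold higher. Ctrb1 had -0.46, Cela3b -0.29, Ctrc -0.09, Cela2a -0.05 and Ctrl 0.05. Those of Ctrb1, Cela3b and Ctrc are differences between values at background. Low values on both DSS arrays were part of how the genes were chosen, so this likeness is a description too.

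The promoters were read from RefSeq (build GRCm38.p6) as windows of 250 bases before and 50 bases from the start of each gene, and 8 of the 9 genes had a window. No window was found for Ctrc. The letters searched on both strands were CACCTG and CAGCTG for the E-box, TTTCCC for the TC-box, TATAAA for a TATA box and TGATAA for a GATA site, and they were chosen with the windows in view. An E-box was found in 8 of 8 windows, against 33.0% of 32817 promoter windows of the same length, and a TC-box in 4 of 8, against 25.2%. A TATA box was found in 3 of 8, against 13.6%, and a GATA site in 5 of 8, against 9.06%. Not all matches lay before the start. The TATAAA of Cpb1 was at bases 36 to 41 counted from the start, and the E-boxes of Cpa1 at 3 to 8 and 23 to 28. In Ctrb1 and Cela1 the TC-box followed an E-box after 4 bases on the same strand. This spacing, which gives the layout of the bipartite PTF1 site, was found in 9 of all 32817 windows (0.0274%). Besides Ctrb1 and Cela1, these 9 were the windows of the trypsin genes Prss1 and Gm5771, and of Esp18, Gm44507, Npnt, Pacc1 and Tnfrsf9. Gm5771 had a log2 signal of 4.11 in IL-4Rα-/- colitis, 4.50 in WT colitis and 5.35 in WT normal. Npnt, Pacc1 and Tnfrsf9 each had the same value in IL-4Rα-/- colitis and WT normal. In WT colitis they were higher than in WT normal by 0.38, 0.1 and 0.32 log2 units. A match is only a run of letters, and binding was not measured. The 250 bases before the start of Ctrb1 and Cela1 are shown because they hold the paired motifs, and those of Cela2a because its E-box and TC-box lie far apart. They run 5′ to 3′ along each gene's own strand, and capitals mark the E-box and TC-box letters.
Ctrb1, chr8:111691011-111691260, minus strand: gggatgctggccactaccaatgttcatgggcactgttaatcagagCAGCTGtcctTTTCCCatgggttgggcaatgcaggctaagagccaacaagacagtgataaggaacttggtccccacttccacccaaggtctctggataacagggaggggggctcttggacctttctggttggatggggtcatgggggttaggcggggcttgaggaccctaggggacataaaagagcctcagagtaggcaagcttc
Cela1, chr15:100687921-100688170, minus strand: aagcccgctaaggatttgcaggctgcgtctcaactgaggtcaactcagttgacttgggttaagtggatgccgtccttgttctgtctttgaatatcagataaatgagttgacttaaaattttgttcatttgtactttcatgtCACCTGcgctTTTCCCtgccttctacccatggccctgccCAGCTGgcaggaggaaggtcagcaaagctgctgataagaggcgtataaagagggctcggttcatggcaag
Cela2a, chr4:141826006-141826255, minus strand: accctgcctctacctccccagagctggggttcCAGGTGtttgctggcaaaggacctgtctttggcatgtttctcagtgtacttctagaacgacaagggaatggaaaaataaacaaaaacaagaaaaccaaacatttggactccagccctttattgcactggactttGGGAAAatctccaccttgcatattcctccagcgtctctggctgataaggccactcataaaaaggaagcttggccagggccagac

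Ctrb1 and Cela1, which share the paired motifs printed above, differed in size of difference. With values below the background level set to it, Ctrb1 had -7.05 in either colitis pool, while Cela1, whose values lay above that level, had -1.77 in IL-4Rα-/- colitis and -2.59 in WT colitis.

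The other enzymes of pancreatic juice were examined on lists drawn up for this purpose. These lists, and those below, were chosen with earlier results of these data known. Their counts are therefore a description, and nothing is read from the shares beside them. In IL-4Rα-/- colitis 7 of 8 measured trypsins and other pancreatic proteases lay over 2-fold below WT normal, against 0.321% of all probe sets, and 0 were higher, against 0.207%. In WT colitis 6 of 8 were more than 2-fold lower, against 0.408%, and 0 were higher, against 1.06%. The medians of this list were -1.68 and -1.49. Try5, a trypsin, had 3.21 in IL-4Rα-/- colitis, 2.78 in WT colitis and 7.80 in WT normal. Prss2, anionic trypsinogen, had 3.66, 3.66 and 6.45 on the same arrays. Cela3a, an elastase next to Cela3b, had 2.86 in both colitis pools and 4.14 in WT normal. Prss1, Pnlip and Ins1 had no probe set with a single symbol. Trypsin genes are near-identical copies, so their probe sets may share signal. The 2 probe sets that list Prss1 with other trypsin genes had 3.56 and 2.86 in IL-4Rα-/- colitis, 3.77 and 2.86 in WT colitis, and 6.89 and 5.29 in WT normal.

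Of 7 measured lipases, amylases and nucleases, 6 were more than 2-fold lower than WT normal in IL-4Rα-/- colitis, against 0.321% of all probe sets. In WT colitis 4 were, against 0.408%, and the medians were -3.98 and -3.12. The same shares belong beside the 2-fold counts of the lists below. For higher signals they are 0.207% in IL-4Rα-/- colitis and 1.06% in WT colitis. Cel, the bile salt-activated lipase, had 2.30 in IL-4Rα-/- colitis, 2.62 in WT colitis and 6.72 in WT normal. Rnase1, pancreatic ribonuclease, had 3.29, 3.71 and 7.60. The 6 probe sets that list Amy2a5 with other pancreatic amylases ranged from 2.33 to 3.73 in IL-4Rα-/- colitis, from 2.53 to 3.58 in WT colitis and from 8.59 to 9.47 in WT normal. They list the same 3 genes and are not separate measurements. Pnliprp2 (3.21 in IL-4Rα-/- colitis, 9.12 in WT colitis and 8.66 in WT normal) and Clps (6.23, 8.86 and 9.48) differed from the 9 proteases in that they were high in WT colitis.

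**Figure D2:**
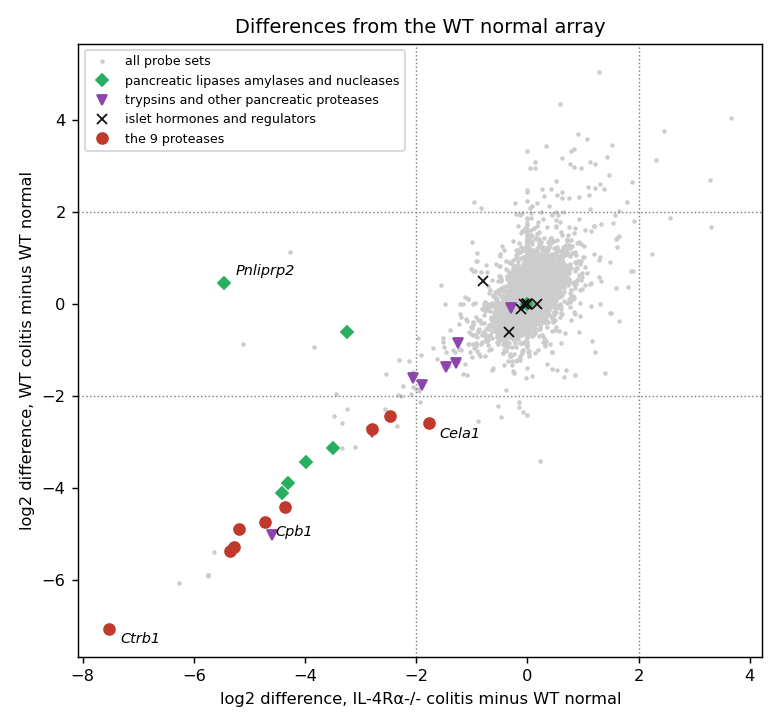
Log2 difference of each probe set for IL-4Rα-/- colitis minus WT normal (x axis) and WT colitis minus WT normal (y axis), with the 9 proteases and 3 gene lists in colour. Dotted lines mark 4-fold (2 and -2), and of the 9 proteases 8 lie in the lower left field, down to Ctrb1 at -7.52 and -7.06, Cela1 lies just right of it at -1.77 and -2.59, and Pnliprp2 lies apart at -5.45 and 0.46; both axes share the WT normal array.

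Over 4-fold lower signals on both colitis arrays were found for 29 probe sets (0.100% of all). They comprised 8 of the 9 proteases, 15 further probe sets of the pancreas lists, 2 without a gene symbol and 4 for other genes. Those 4 were a pair for the heat shock protein gene Hspa1a, of which 1 also lists Hspa1b, and 1 each for Egr1 (an immediate early transcription factor) and Cyp2e1 (a cytochrome P450). By distance from the median profile of the 9 over both differences from WT normal, the 10 nearest of the other genes lay between 0.322 and 3.16 log2 units away. They were Try5, Cel, Rnase1, Pnliprp1, Pla2g1b and Prss2, all enzymes of pancreatic juice, with Hspa1a, Egr1, Mptx1 and Cyp2e1. This choice rests on 3 arrays and on colitis values partly below the background level, so no order is given. Computed against that level, the smaller fall was at least 19.7-fold for Try5, 9.32-fold for Cel and 7.57-fold for Pnliprp1. For Rnase1 and Pla2g1b the smaller fall was in WT colitis, where their values of 3.71 and 3.67 lay above that level. It was 14.8-fold for Rnase1 and 8.69-fold for Pla2g1b. By the smaller of the falls on the colitis arrays, 9 of the same 10 genes came first, with Reg1, a secreted lectin made by acinar cells, in place of Mptx1. Reg1 had 3.34 in IL-4Rα-/- colitis, 3.63 in WT colitis and 5.91 in WT normal.

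Not all genes associated with acinar cells moved with the proteases. Of 13 granule and secretory proteins, IL-4Rα-/- colitis had 4 below WT normal by more than 2-fold (Reg1, Reg2, Gp2 and Tff2). It had 3 above WT normal (Reg3b, Reg3g and Muc1). WT colitis had 5 below (Reg1, Reg2, Tff2, Muc1 and Sycn) and 1 above (Reg3b). Gp2 had 3.42 in IL-4Rα-/- colitis, 3.99 in WT colitis and 4.92 in WT normal. Sycn, syncollin of zymogen granules, was high on every array (12.23 in IL-4Rα-/- colitis, 11.30 in WT colitis and 12.33 in WT normal), and so was Zg16, a lectin also made by goblet cells, at 12.12 on all 3. Of 17 acinar transcription factors and identity genes, of which 12 were above the background level in WT normal, 0 passed 2-fold in either comparison. Their summed linear signal was 859.6 in IL-4Rα-/- colitis, 942.3 in WT colitis and 868 in WT normal. Gata6, Rnf186, Nr5a2 and Gatm were the brightest in WT normal (8.00, 7.45, 7.19 and 6.98) and made up most of this sum. The part of acinar cells in their signal was not tested, so the sum is not a measure of acinar RNA. Ptf1a, the DNA-binding subunit particular to PTF1, was at background throughout (2.20, 2.29 and 2.27 in the same order). Rbpjl, its partner, had 3.47, 3.63 and 3.70, and Bhlha15, an acinar maturation factor, had 4.90 on each array.

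Islet and duct markers were examined for the rest of the pancreas. Of 11 islet genes, 0 passed 2-fold against WT normal on either colitis array. Only 4 of the 11 were above the background level in WT normal, so a fall could not be seen in the rest. Ins2, insulin, and Iapp, amylin, both had 2.62 on all 3 arrays, at background. Gcg (8.34 in IL-4Rα-/- colitis, 8.05 in WT colitis and 8.67 in WT normal), Sst (7.62, 8.91 and 8.41) and Ppy (8.29, 8.10 and 8.11) had signals everywhere, and these hormones are also made by enteroendocrine cells of the colon. Among 7 duct genes, which colonic epithelium shares, 0 passed 2-fold. The part of pancreatic tissue in the WT normal signals was not tested.

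**Figure D3:**
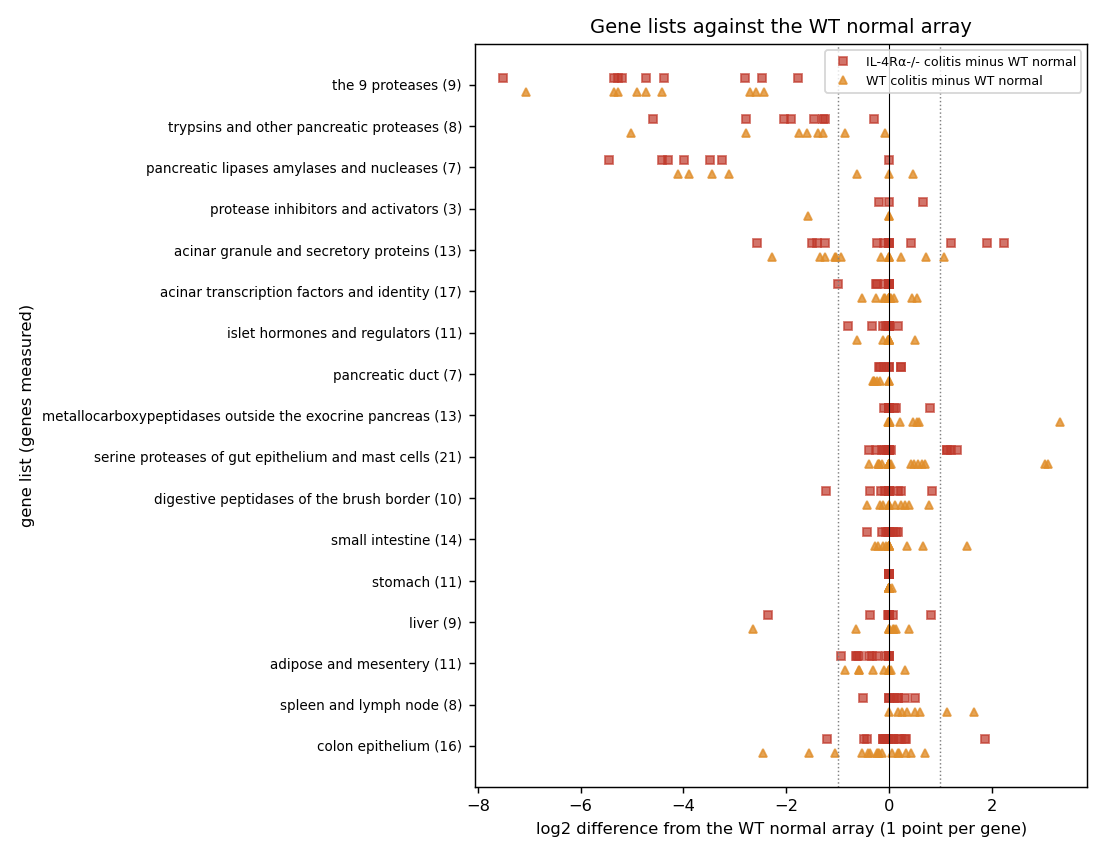
Log2 difference from WT normal (x axis) of each measured gene of 17 lists (y axis, number of genes in brackets), for IL-4Rα-/- colitis (squares) and WT colitis (triangles), with dotted lines at 1 and -1, the 2-fold threshold. The proteases and the lists of pancreatic enzymes extend to the left, down to -7.52, whereas the islet, duct and stomach lists stay within the lines. In WT normal 4 of 11 islet, 6 of 7 duct and 0 of 11 stomach genes were above the background level. The others of these lists could not be seen to fall.

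Related proteases outside the exocrine pancreas were set beside the 9. Of 13 metallocarboxypeptidases made elsewhere, 8 were above the background level in WT normal, and the rest could not be seen to fall. Of the 13, 0 were more than 2-fold lower on either colitis array. Cpa3, the carboxypeptidase of mast cells, was higher, with 4.29 in IL-4Rα-/- colitis, 6.82 in WT colitis and 3.50 in WT normal. Cpa4 (2.20) and Cpa5 (2.29) had the same value at background on all 3 arrays. Among 21 serine proteases of gut epithelium, mast cells and lymphocytes, 14 were above the background level in WT normal, with the same limit for the rest. Of the 21, 0 were more than 2-fold lower on either colitis array. IL-4Rα-/- colitis had 4 above WT normal by more than 2-fold (Gzmb, Mcpt1, Gzma and Mcpt2) and WT colitis had 2 (Mcpt1 and Mcpt2). Of 10 brush border peptidases, which finish the digestion of peptides, Dpep1 alone passed 2-fold, in the IL-4Rα-/- comparison, with 7.78 in IL-4Rα-/- colitis, 8.58 in WT colitis and 9.01 in WT normal. Tmprss15, the enteropeptidase that activates trypsinogen, had 2.20 on all 3 arrays. Spink1, an inhibitor of trypsin, belonged to a list of 3 measured inhibitors and activators, of which 0 passed 2-fold in IL-4Rα-/- colitis and Spink1 alone was lower in WT colitis. It had 7.73 in IL-4Rα-/- colitis, 5.49 in WT colitis and 7.07 in WT normal.

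The genes next to each protease on its chromosome were looked up in RefSeq, with the next protein-coding gene on each side. Of the 17 such genes 15 were measured, and 3 of these belong to the pancreatic enzymes (Cela2a, Cela3a and Try4). Among the other 12, 0 were more than 2-fold lower on either colitis array. Of all probe sets, 0.321% were in IL-4Rα-/- colitis and 0.408% in WT colitis, so nothing is read from this count. The differences of the 12 from WT normal ran from -0.16 to 3.32, the highest being Cpa3 beside Cpb1. Cpa5 (2.29), Cep41 (3.17) and 1700013G24Rik (2.65) were below the background level in WT normal, so a fall could not be seen in them. Zfp1 and Bcar1, on either side of Ctrb1, had 4.11 and 6.20 on every array. Cpa5, next to Cpa1, was likewise equal on all 3.

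**Figure D4:**
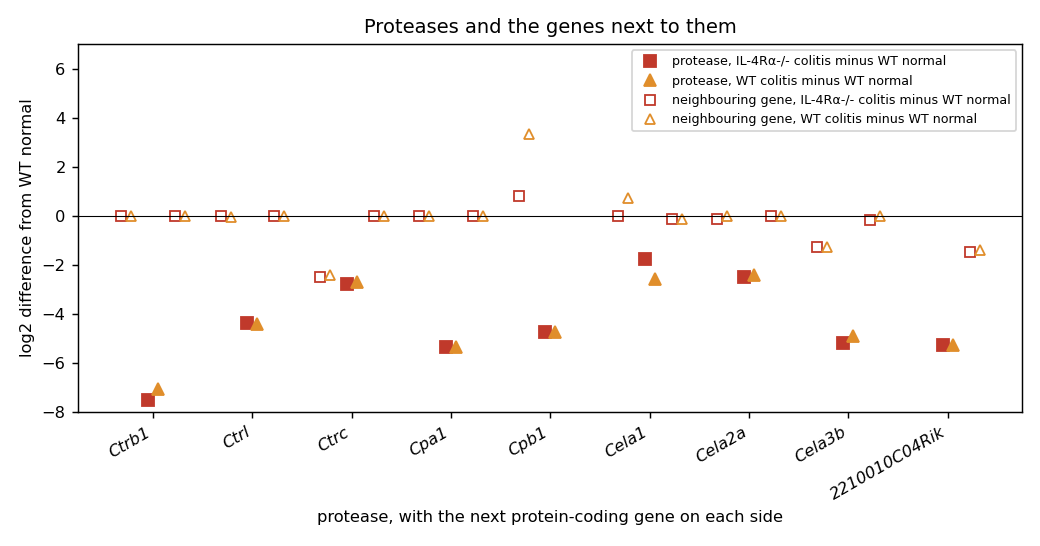
Log2 difference from WT normal (y axis) of each of the 9 proteases (filled) and of the next protein-coding gene on each side (open, left and right of it), for IL-4Rα-/- colitis (squares) and WT colitis (triangles). Most neighbours lie at or near 0 while the protease between them lies below, and the open points below -1 are the pancreatic enzymes Cela2a, Cela3a and Try4. Some neighbours, such as Cpa5, were at background in WT normal and could not be seen to fall.

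Markers of other tissues near the colon were also examined, for what the pools could hold. Of 11 stomach genes 0 were above the background level on any array. Of 14 small intestinal genes, 7 of them above the background level in WT normal, 0 were more than 2-fold lower. Alpi was more than 2-fold higher in WT colitis, and Lct (2.82), Sis (2.53) and Fabp6 (2.53) were at background on all 3 arrays. Of 9 liver genes Cyp2e1 was more than 2-fold lower on both colitis arrays (4.23 in IL-4Rα-/- colitis, 3.93 in WT colitis and 6.58 in WT normal), while Alb, albumin, was at background with 2.89 on each. Of 11 genes of adipose tissue and mesothelium, 0 passed 2-fold, and their summed linear signal was 413.3 in IL-4Rα-/- colitis, 463.3 in WT colitis and 541.3 in WT normal. Pck1, which is not particular to adipose tissue, was the brightest of them (7.75, 7.82 and 8.13 in the same order). Cidec had the largest difference of this list, with 5.02 in IL-4Rα-/- colitis, 5.10 in WT colitis and 5.95 in WT normal. Plin1 had 3.44, 3.44 and 4.03. The median difference of the list was -0.34 in IL-4Rα-/- colitis and 0 in WT colitis. Lipe, Lep and Msln were equal on all 3 arrays, and Fabp4 had 5.59 in IL-4Rα-/- colitis, 6.14 in WT colitis and 5.82 in WT normal. Adipoq, the adipocyte hormone adiponectin, had 3.26, 3.32 and 3.90 on the same arrays. Of 8 genes of spleen and lymph node, 0 were more than 2-fold lower, and Ms4a1 and Cxcl13 were more than 2-fold higher in WT colitis. The part of these tissues in the protease signals was not tested.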

How the data were processed

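RNA of the distal colon was pooled within each group and hybridised to 1 array per group, which the study's methods name as an Affymetrix GeneChip (Mouse Gene 1.0 ST), while the sample labels describe Cy3 labelling with an Agilent kit. The deposited table holds log2 signals of 28944 probe sets, rounded by the authors to 2 decimals. The summary and normalization methods behind them are not given in the sources used. Gene symbols came from the platform annotation: 21789 probe sets had 1 symbol, 1621 several and 5534 none. A gene was represented by its brightest probe set, by the mean of its 3 log2 values. Each of the 9 proteases had 1 probe set, and all 9 were matched to RefSeq by gene number. Log2 differences were counted past 4-fold for the proteases and past 2-fold for lists, with no test. The proteases and the 17 lists (themselves included) were chosen with earlier results of these data known. All 9 proteases were named, with up to 4 genes per list that had the largest differences, defining pancreas genes, the 10 nearest and the 10 most lowered other genes, and the genes next to each protease. Genes outside this rule, such as Zg16, Cpa4 and Alb, were named after their values had been seen. Counting was tested on simulated data. Alternatives were quantile normalization, median centring, an offset of 32 on the linear scale, a filter on dim probe sets, other ways to choose a gene's probe set and, added after the data had been seen, the background level as a floor. Python 3.11.15, numpy 2.4.6, pandas 2.3.3, scipy 1.17.1 and matplotlib 3.10.9 were used.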

Additional observations from a re-analysis of the deposited data

How the results depend on the processing

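The counts of proteases more than 4-fold lower (8 in IL-4Rα-/- colitis and 9 in WT colitis) were the same with quantile normalization and median centring. They were also the same with the filter on dim probe sets, both other ways of choosing a probe set and the background floor. These last settings could not have changed the counts. Each of the 9 had 1 probe set, so other ways of choosing it left its values as they were. With WT normal signals of 5.99 or more, none was dim enough for the filter. For the same reason, each stayed over 4-fold above a floor of 3.5. Adding 32 to every linear signal, which shrinks differences of dim probe sets by construction, left 6 more than 4-fold lower in each, and Ctrc, Cela1 and Cela2a did not pass. The median difference from WT normal was then -2.85 in IL-4Rα-/- colitis and -2.79 in WT colitis. With values below 3.5 set to that level it was -4.37 and -4.42. In no setting did any of the 9 differ by more than 2-fold between IL-4Rα-/- colitis and WT colitis, and no difference past 2-fold changed sign. One array per group limits every value here, and the scatter near background could not be measured. No paired analysis was possible because each group had 1 array.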

Other observations

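Some other genes lower on both colitis arrays than in WT normal are given here as single values, picked after their values had been seen. Hspa1a, an inducible heat shock protein 70, had a log2 signal of 6.17 in IL-4Rα-/- colitis, 6.92 in WT colitis and 9.51 in WT normal. Its co-chaperone Dnajb1 had 5.58, 5.73 and 7.68 on the same arrays. Egr1 had 6.26, 7.21 and 9.50, Fos had 5.84, 6.09 and 7.89, Nr4a1 had 6.17, 7.18 and 8.71, and Hbegf, a ligand of the epidermal growth factor receptor, had 5.99, 6.04 and 7.94. Car3, a carbonic anhydrase abundant in adipose tissue and muscle, had 6.50 in IL-4Rα-/- colitis, 6.85 in WT colitis and 8.83 in WT normal. All of these values were above the background level of 3.5. Any relation to the protease signals was not tested.

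Low values in the deposited table were shared by many probe sets. On the WT colitis array, 595 probe sets had exactly 2.62, the value of Cpb1, and 302 had 2.86, the value of 2210010C04Rik. On the IL-4Rα-/- colitis array 593 and 304 probe sets had these values, whereas in WT normal 24 shared the 7.35 of Cpb1 and 13 the 8.14 of 2210010C04Rik. The median number of probe sets per distinct value was 15 in IL-4Rα-/- colitis, 16 in WT colitis and 14 in WT normal. All 3 values were equal for 46.9% of all probe sets.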
